A study of Rattus norvegicus with 12 samples.

Results

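The genes described are 53 genes of the connective tissue type of extracellular matrix and of the fibroblasts, meningeal cells and mural cells that make it. They were taken from a list of 55 gene symbols: a probe set counted when the platform annotation gave it exactly 1 symbol and that symbol was listed. For 2 listed genes, Thbs1 and Slc6a20, no such probe set was found here. The 53 genes are carried by 81 probe sets of 31042, and they stand among 14217 genes named in this way. Of the 53, 23 have several probe sets, which were averaged, and 30 have 1.

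RNA came from organotypic hippocampal slice cultures of Wistar rats, in which slices of the hippocampus are grown on a porous insert. Slices of 350 µm were cut at postnatal day 7, placed 4 to an insert, kept at 33 °C and collected after 26 days in vitro. The 4 groups of 3 arrays were untreated cultures (NT), cultures given a control IgG, and cultures given 11C7 or 7B12, monoclonal antibodies to amino acids 623 to 640 and 763 to 820 of Nogo-A. All antibodies, the control IgG included, were used at 3 µg/ml. Treatment began on day 21 and lasted 5 days, with medium renewed every 2 days, and each sample pooled 24 cultures. Nogo-A, the product of Rtn4, sits in membranes of oligodendrocytes and neurons and restrains neurite growth. The replicates of a group are separate cultures from different animals per the design text, and the isotype of the control IgG is not given in the sources used here. Replicate numbers 1, 2 and 3 occur once in each group, and what arrays of one number share is not stated.

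Fibrous matrix is sparse in healthy brain tissue and is found mainly in the meninges and around vessels. Fibrillar collagens form the tensile fibres, collagen IV and laminins form the basement membrane that separates vessels and meninges from the tissue, and small leucine-rich proteoglycans regulate how collagen fibrils assemble. Fibroblasts secrete most of these proteins, while pericytes and smooth muscle cells, the mural cells of vessels, add contractile proteins and basement membrane. After injury to the central nervous system such cells build a fibrotic scar.

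Values are log2 of the deposited ratio less the median of the array, so 0 is the typical probe set of that array. Each probe set had been divided by a reference of its own, so values say nothing about the level of a gene, genes cannot be ranked by level, and the labelled tissue could not be checked against marker levels. In bulk RNA of this kind, fewer cells of a type and less RNA per cell cannot be told apart. The number of arrays limits the precision. No 2 arrays shared more than 0.277% of their values. The acute-phase gene Saa3 was high in 7B12 (6.52, 4.40 and 7.17) and also in 11C7 1 (6.62), against 0.022 and 0.61 in the other 11C7 arrays and -2.17 to 0.055 in the controls. Results for 11C7 are therefore also given without that array where it matters. Rtn4 ranged from -0.19 to 0.21 over the 12 arrays.

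**Figure D1:**
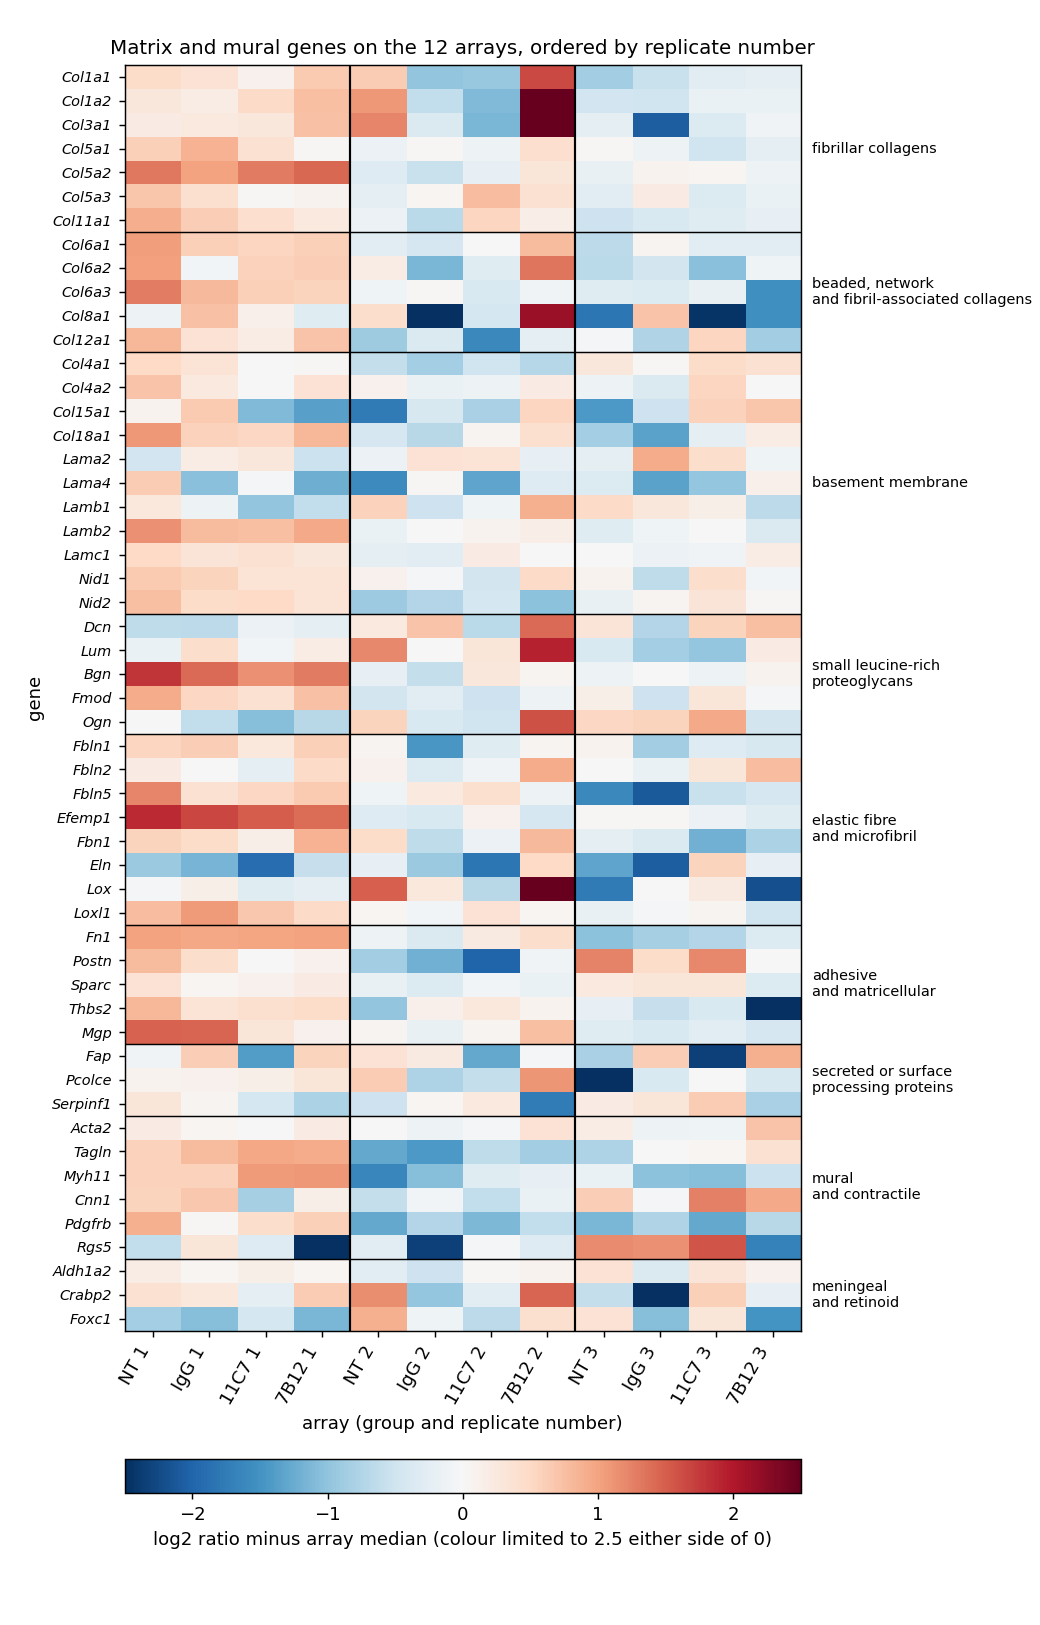
Each row is 1 of the 53 genes and each column 1 array, ordered by replicate number and within a number as NT, IgG, 11C7 and 7B12. Colour gives the log2 ratio minus the array median, red above and blue below 0, limited to 2.5 either side. Many genes are red across the 4 arrays of number 1, such as Efemp1 and Bgn, and 13 genes have their highest value in 7B12 2.

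The question for the antibodies was whether matrix and mural genes differ when Nogo-A is bound. None of the 53 genes passed the threshold of 0.05 on the adjusted p with 11C7, with 7B12 or with the mean of both, against the mean of NT and IgG (limma with the replicate number as a block, Benjamini-Hochberg adjustment over 14217 genes). Over all genes the share passing was 0% in each of the 5 comparisons made. At an unadjusted p under 0.05 stood 2 of the 53 genes with 11C7 (3.77%, against 5.99% of all genes), 7 with 7B12 (13.2%, against 11.8%) and 6 with both (11.3%, against 9.9%). Without the block these were 1, 3 and 3. The share of matrix genes below that limit was near that of all genes. With 11C7 the genes were Tagln, higher (1.89%, against 2.79% of all genes), and Fap, lower (1.89%, against 3.2%). With 7B12 5 were higher, Col18a1, Fbln2, Fn1, Acta2 and Tagln (9.43%, against 6.84%), and Lama2 and Serpinf1 were lower (3.77%, against 4.99%). With both antibodies 4 were higher, Col18a1, Fbln2, Fn1 and Tagln (7.55%, against 6.03%), and Fap and Serpinf1 were lower (3.77%, against 3.88%). The 3 comparisons share their control arrays. By the methods' 1-way analysis of variance over the 4 groups with at least 1.2-fold, 422 genes (2.97%) had an unadjusted p under 0.05 and 0 passed after Benjamini-Hochberg. The 5 matrix genes among the 422 (9.43% of the 53, against 2.97% of all genes) were Lama2, Fbln2, Fap, Serpinf1 and Acta2.

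With 7B12 the median difference of the 53 genes was 0.13, with 37 above 0 (69.8%, against 52.1% of all genes). It was -0.0057 without 7B12 2 and 0.285 without 7B12 1. With 11C7 the median was 0.034, with 32 above 0 (60.4%, against 56.1%), and it was 0.154 without 11C7 1 and below 0 without 11C7 3 (-0.0715), NT 2 (-0.031) or NT 3 (-0.0148). The mean of the 53 genes was 0.51, -0.11 and -0.31 in NT, 0.36, -0.48 and -0.39 in IgG, 0.14, -0.34 and -0.074 in 11C7, and 0.19, 0.43 and -0.31 in 7B12. The groups overlapped. The difference had one sign in all 3 numbers for 10 genes with 11C7 (18.9%, against 24.7% of all genes), 21 with 7B12 (39.6%, against 35.4%) and 11 with both (20.8%, against 32.8%). No gene had both antibodies apart from the controls without overlap (0.127% of all genes were higher and 0.0914% lower in this way). In every group but 7B12 the array of number 1 was the highest, and in 7B12 it was the array of number 2.

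**Figure D2:**
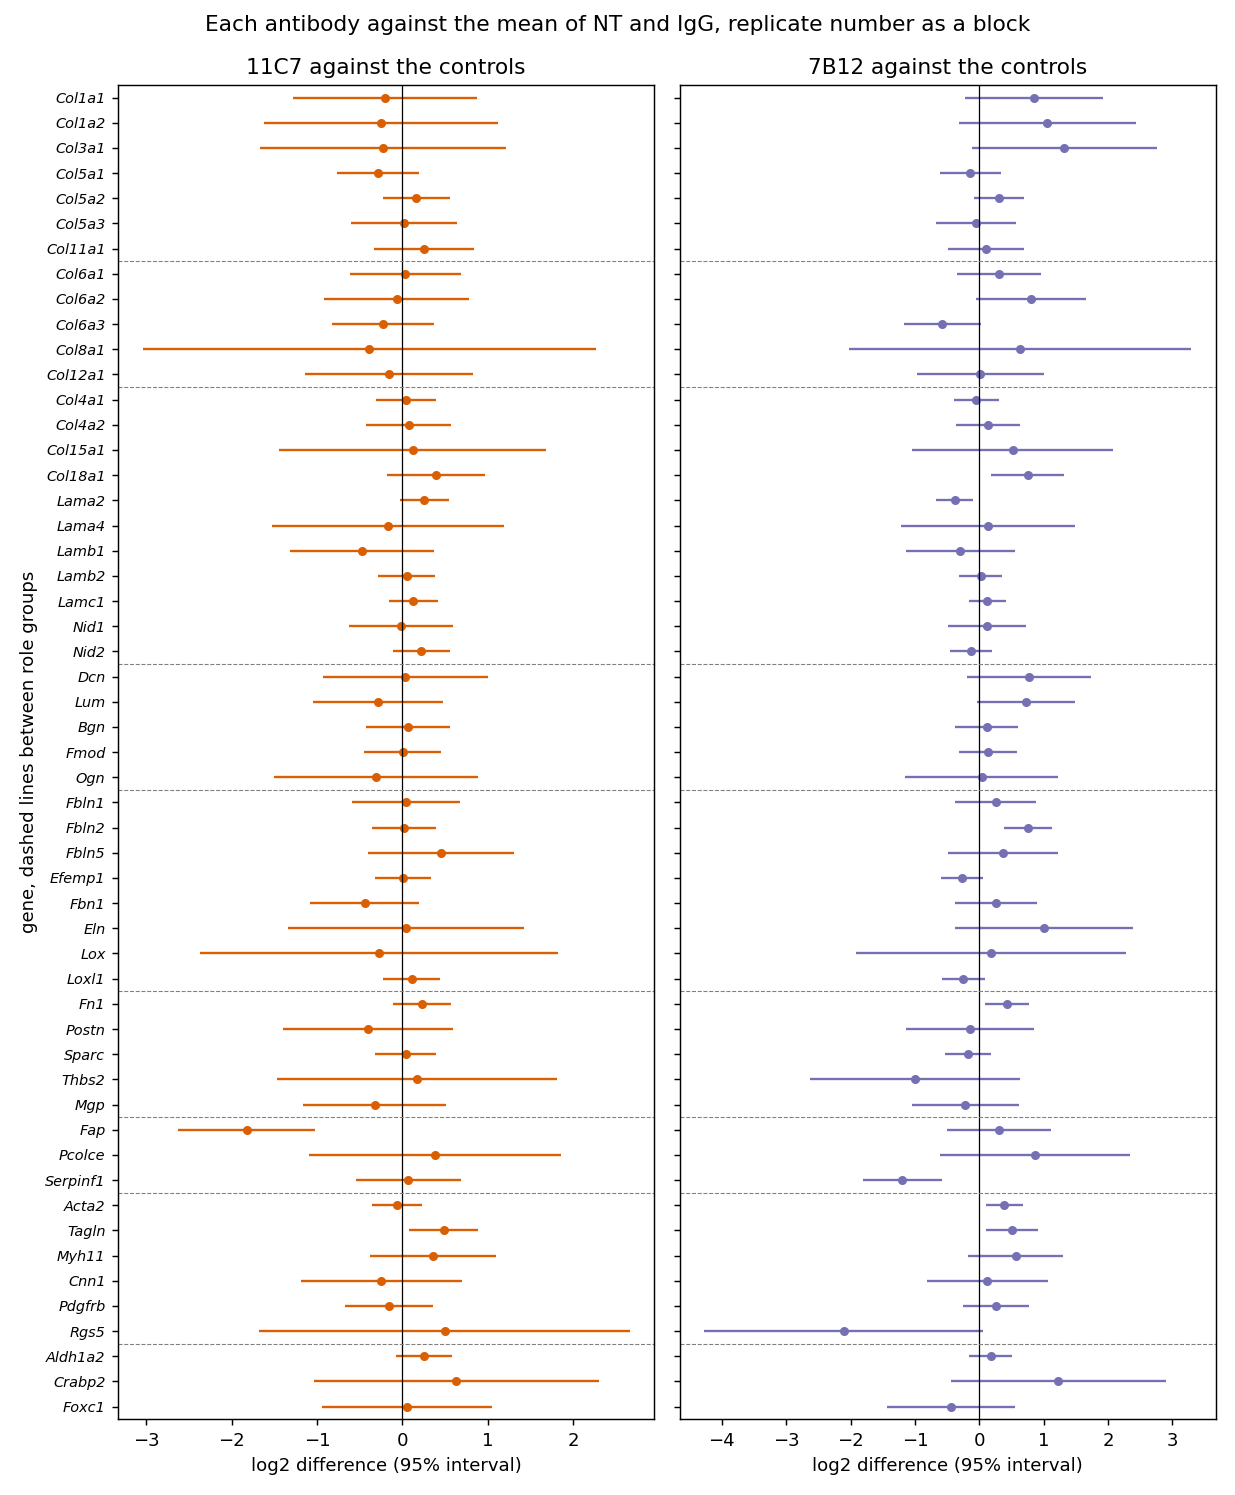
Points are log2 differences of each of the 53 genes from the mean of NT and IgG, with 95% intervals of the fit that has the replicate number as a block, for 11C7 (left) and 7B12 (right). Most intervals span 0. Fap lies at -1.83 with 11C7, and Serpinf1 at -1.2 and Fbln2 at 0.76 with 7B12, and no gene passed after adjustment over all genes.

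Of the 7 fibrillar collagen genes, 5 were above 0 with 7B12 (median 0.31) and 3 with 11C7 (median -0.21), and none passed. Col1a1, Col1a2 and Col3a1 encode the chains of the type I and III fibres. Col3a1 was 0.20, 1.21 and -0.22 in NT, 0.25, -0.37 and -2.07 in IgG, 0.28, -1.14 and -0.34 in 11C7 and 0.73, 2.81 and -0.079 in 7B12. It stood 1.32 ± 0.62 (SE) above the controls with 7B12 (adjusted p = 0.457). The 7B12 arrays overlapped the controls, and without 7B12 2 the difference was 0.565. Col1a1, which stood 0.85 ± 0.46 above the controls, was at 0.271 without it. Col1a2 in 7B12 2 was 2.57 and in the other 11 arrays -1.10 to 1.08. With 11C7 the 3 genes stood -0.21 ± 0.46, -0.25 ± 0.59 and -0.23 ± 0.62 from the controls. The fibril-nucleating type V chains and Col11a1 ranged from -0.14 (Col5a1) to 0.31 (Col5a2) with 7B12, and Col5a1 stood -0.29 ± 0.21 from the controls with 11C7.

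Col3a1 and Col5a2 are neighbouring genes in the RefSeq annotation, as are Col6a1 and Col6a2, Col4a1 and Col4a2, and Dcn and Lum. The neighbours Col3a1 and Col5a2 differed in the arrays of number 1. Col5a2 was 1.32, -0.33 and -0.19 in NT, 1.0, -0.56 and 0.092 in IgG, 1.3, -0.20 and 0.058 in 11C7 and 1.43, 0.29 and -0.13 in 7B12, highest in the 4 arrays of number 1. Within number 2, 7B12 was the highest array for both genes, at 0.29 for Col5a2 and 2.81 for Col3a1.

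Among the 5 other interstitial collagens, Col6a1, Col6a2 and Col6a3 encode the chains of beaded filaments, Col8a1 a network collagen and Col12a1 a fibril-associated one. With 7B12 4 of the 5 were above 0 (median 0.30) and with 11C7 1 of 5 (median -0.16). The type VI chains did not stand on one side of 0: Col6a2 was 0.81 ± 0.36 (adjusted p = 0.444) and Col6a3 -0.58 ± 0.26 (adjusted p = 0.434) with 7B12. Col6a2 was 0.342 above the controls without 7B12 2, and Col6a3 was -0.204 without 7B12 3. The 2 probe sets of Col6a3 disagreed with 7B12, at 0.15 and -1.30, and the lower one was -2.79 in 7B12 3. The side on which Col6a3 stood thus rests on 1 probe set. Col6a3 was 1.28, -0.11 and -0.30 in NT, 0.80, 0.032 and -0.35 in IgG, 0.59, -0.38 and -0.19 in 11C7 and 0.56, -0.084 and -1.52 in 7B12. All 4 of its arrays of number 1 were above the other 8. Col8a1, whose probe sets all had a 12-array median under 1, ranged from -3.14 to 2.15 with no order by group.

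The 11 basement membrane genes encode collagen IV, the multiplexin collagens XV and XVIII, laminin chains and the nidogens that link them. With 7B12, 7 were above 0 (median 0.13) and with 11C7 8 (median 0.071), and none passed. Col18a1, the source of the endostatin fragment, was 1.08, -0.42 and -0.84 in NT, 0.57, -0.69 and -1.34 in IgG, 0.52, 0.061 and -0.22 in 11C7 and 0.84, 0.39 and 0.19 in 7B12. It stood 0.75 ± 0.25 (1.68-fold) above the controls with 7B12 (adjusted p = 0.304) and 0.39 ± 0.25 with 11C7 (adjusted p = 0.786). Every 7B12 value lay within the range of the controls, which were highest in number 1 and lowest in number 3. Against the mean of NT and IgG of the same number 7B12 was higher in 3 of 3 numbers, by 0.016, 0.95 and 1.28, and in number 1 it was below NT.

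Lama2 encodes the laminin α2 chain, which mural cells and meningeal fibroblasts add to the vessel wall and pial border. It was -0.49, -0.15 and -0.22 in NT, 0.19, 0.37 and 0.92 in IgG, 0.29, 0.35 and 0.44 in 11C7 and -0.54, -0.20 and -0.10 in 7B12. All IgG and 11C7 arrays were above 0 and all NT and 7B12 arrays below it. IgG stood 0.78 ± 0.14 (interval 0.45 to 1.11, 1.72-fold) above NT without overlap (unadjusted p = 0.000767, adjusted p = 1; 2.24% of all genes had IgG above NT without overlap). 7B12 stood -0.64 ± 0.14 from 11C7, also without overlap (adjusted p = 0.596; 3.43% of all genes lay lower in 7B12 without overlap), and -0.545 without 11C7 1. Against the mean of NT and IgG, 7B12 stood at -0.38 ± 0.12 and 11C7 at 0.26 ± 0.12 (adjusted p = 0.301 and 0.78), so that these differences average 2 control groups that did not overlap.

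The 250 bases before the start of Lama2 in the RefSeq table of build GRCr8 (chr1:19491896-19492145, + strand) are shown because Lama2 was the only one of 36 genes with an entry to match the strict pattern of the CArG box, the element bound by serum response factor in many smooth muscle genes. Capitals mark the match, CCTTTAAAGG at bases -115 to -106 from the start, and a CCAAT match at -170 to -166.
Lama2 upstream: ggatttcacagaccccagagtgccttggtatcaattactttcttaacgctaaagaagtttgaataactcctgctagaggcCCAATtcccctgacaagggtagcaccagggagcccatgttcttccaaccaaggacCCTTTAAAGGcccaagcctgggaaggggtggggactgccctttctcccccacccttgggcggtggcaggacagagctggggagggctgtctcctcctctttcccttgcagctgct
A strict match stood in the same window of 1.5% of 27457 genes. With at most 1 letter off the pattern, a looser search chosen after the strict matches were seen, 5 of the 36 genes had a match (13.9%, against 18.6% of all genes), which were Acta2, Col8a1, Fap, Lama2 and Lamb1. Acta2 had 2 such matches, in capitals in its upstream bases (GRCr8, chr1:241172504-241172753, - strand), at -134 to -125 and -84 to -75.
Acta2 upstream: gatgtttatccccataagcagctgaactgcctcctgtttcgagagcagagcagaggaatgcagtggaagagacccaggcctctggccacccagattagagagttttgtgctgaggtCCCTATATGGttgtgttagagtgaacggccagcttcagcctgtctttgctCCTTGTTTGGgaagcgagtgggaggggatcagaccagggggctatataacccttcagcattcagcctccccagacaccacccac
Matches to TATAAA were in 5 of the 36 (13.9%, against 13.1% of all genes) and to CCAAT in 12 (33.3%, against 34.3%), each on both strands and searched apart, so matches may overlap. These shares were near those of all genes. A match is a run of letters and not a measured binding site.

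Col4a1 and Col4a2, the chains of the main basement membrane collagen, lie head to head with 76 bases between their starts. That stretch is shown because it lies upstream of both genes (GRCr8, chr16:84885521-84885596, + strand, reading towards Col4a1), and 78.9% of it is G or C.
Col4a2-Col4a1 gap: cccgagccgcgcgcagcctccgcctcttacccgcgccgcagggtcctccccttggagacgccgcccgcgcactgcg
Neither gene was near the limit with an antibody. Col4a1 stood -0.049 ± 0.15 and Col4a2 0.13 ± 0.21 from the controls with 7B12, and 0.037 ± 0.15 and 0.071 ± 0.21 with 11C7. By number, Col4a1 was lowest in number 2, with means of 0.22 ± 0.24, -0.66 ± 0.16 and 0.29 ± 0.18 (SD, n = 4 arrays) in numbers 1, 2 and 3. Col4a2 was 0.33 ± 0.29, 0.0033 ± 0.18 and 0.013 ± 0.38. The test over the numbers gave adjusted p = 0.00837 for Col4a1 and 0.402 for Col4a2, and the difference between the genes was not tested.

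Apart from Col18a1 and Lama2, none of the 11 basement membrane genes had an unadjusted p under 0.05 with either antibody (limma). Lamb1, the laminin β1 chain, stood -0.47 ± 0.36 from the controls with 11C7 and -0.29 ± 0.36 with 7B12. Nid2, encoding nidogen 2, stood 0.22 ± 0.14 and -0.13 ± 0.14. Lamc1, the γ1 chain shared by most laminins, had a narrow spread, from -0.26 to 0.50 over the 12 arrays. Col15a1 and Lama4 spread more, over -1.77 to 0.69 and -1.59 to 0.63.

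The small leucine-rich proteoglycans all stood above 0 with 7B12 (5 of 5, median 0.13), and none passed. Lum encodes lumican, which spaces collagen fibrils, and was -0.17, 1.2 and -0.37 in NT, 0.44, -0.015 and -0.85 in IgG, -0.077, 0.30 and -0.97 in 11C7 and 0.18, 1.92 and 0.20 in 7B12. It stood 0.73 ± 0.33 above the controls with 7B12 (adjusted p = 0.437) and -0.29 ± 0.33 from them with 11C7, and the difference with 7B12 was 0.425 without 7B12 2. Decorin, encoded by the neighbouring gene Dcn, was -0.64, 0.24 and 0.33 in NT, -0.66, 0.70 and -0.72 in IgG, -0.15, -0.68 and 0.56 in 11C7 and -0.24, 1.42 and 0.75 in 7B12. Its difference with 7B12 was 0.77 ± 0.41 (adjusted p = 0.529), and 0.479 without 7B12 2. Both genes had their highest value in 7B12 2, as did Ogn, the gene of osteoglycin. Bgn and Fmod, encoding biglycan and fibromodulin, stood 0.11 ± 0.21 and 0.13 ± 0.19 above the controls with 7B12.

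Elastic fibres consist of elastin on a scaffold of fibrillin microfibrils, with fibulins at their surface and lysyl oxidases that cross-link them. Of the 8 genes of this group 6 were above 0 with 7B12 (median 0.25) and 6 with 11C7 (median 0.030). Fbln2, the gene of fibulin 2, was 0.20, 0.12 and 0.012 in NT, 0.0059, -0.34 and -0.16 in IgG, -0.25, -0.084 and 0.30 in 11C7 and 0.47, 0.93 and 0.78 in 7B12. All 3 arrays of 7B12 lay above all 6 control arrays and all 3 of 11C7. The difference from the controls was 0.76 ± 0.16 (1.69-fold, interval 0.38 to 1.13, adjusted p = 0.218), and over all genes 2.52% stood higher in 7B12 without overlap. With 11C7 it was 0.017 ± 0.16, and between the antibodies 0.74 ± 0.19 (adjusted p = 0.596). The adjusted p with 7B12 ranged from 0.107 to 0.401 over the 8 alternatives of fit and scaling.

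Eln, encoding elastin, stood 1.0 ± 0.59 above the controls with 7B12 and 0.043 ± 0.59 with 11C7, with single values from -2.06 to 0.55. Its 2 probe sets stood at 0.25 and 1.75 with 7B12, and the one at 1.75 had a 12-array median under 1. Lox, the gene of lysyl oxidase, reached 3.03 in 7B12 2 and -2.19 in 7B12 3, its highest and lowest values. Fbn1, the fibrillin 1 gene, stood -0.44 ± 0.27 from the controls with 11C7 and 0.25 ± 0.27 with 7B12. Efemp1 and Loxl1, encoding fibulin 3 and a lysyl oxidase relative needed for elastic fibre upkeep, stood -0.27 ± 0.14 and -0.25 ± 0.14 with 7B12.

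Adhesive and matricellular proteins link cells to the matrix or modulate that link. Of 5 such genes, 1 was above 0 with 7B12 (median -0.17) and 3 with 11C7 (median 0.038). Fn1 encodes fibronectin, the first matrix laid down in wounds, and was 1.0, -0.13 and -1.03 in NT, 0.96, -0.37 and -0.84 in IgG, 0.98, 0.23 and -0.72 in 11C7 and 1.0, 0.43 and -0.35 in 7B12. Its values followed the number closely. Within each number 7B12 was above both controls, but in number 1 it was nearly level with NT (0.9977 against 0.9962). The difference was 0.43 ± 0.15 with 7B12 (1.35-fold, adjusted p = 0.321) and 0.23 ± 0.15 with 11C7 (adjusted p = 0.788). Thbs2, encoding thrombospondin 2, stood -1.0 ± 0.70 with 7B12 and 0.173 without 7B12 3, where it was -3.79, or -1.67 without 7B12 2. Sparc and Mgp, the genes of osteonectin and matrix Gla protein, stood -0.17 ± 0.15 and -0.22 ± 0.36 with 7B12.

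Postn encodes periostin, a matricellular protein of fibroblasts. It was 0.79, -0.87 and 1.25 in NT, 0.44, -1.21 and 0.46 in IgG, 0.0058, -1.99 and 1.2 in 11C7 and 0.10, -0.084 and 0.0075 in 7B12. The highest values were in NT 3 and 11C7 3 and the lowest in 11C7 2, and it stood -0.41 ± 0.43 from the controls with 11C7 and -0.14 ± 0.43 with 7B12. Its 250 upstream bases (GRCr8, chr2:140677811-140678060, + strand) are shown as an example of a gene with a TATAAA match, in capitals at bases -44 to -39, beside the GC-rich collagen IV stretch without one.
Postn upstream: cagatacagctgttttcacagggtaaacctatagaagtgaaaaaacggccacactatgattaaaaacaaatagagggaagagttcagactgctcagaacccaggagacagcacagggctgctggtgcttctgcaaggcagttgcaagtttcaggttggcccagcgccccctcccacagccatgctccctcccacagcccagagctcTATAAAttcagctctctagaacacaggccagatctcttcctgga
The genes with such a match were Col1a2, Crabp2, Lama4, Ogn and Postn.

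The proteins that process matrix or act on it at the cell surface are encoded by Fap, Serpinf1 and Pcolce. Fap, which had the lowest p of the 53 genes with 11C7, encodes fibroblast activation protein, a membrane serine protease of activated fibroblasts. It was -0.086, 0.37 and -0.81 in NT, 0.61, 0.22 and 0.62 in IgG, -1.4, -1.28 and -2.34 in 11C7 and 0.55, -0.055 and 0.88 in 7B12. All 3 arrays of 11C7 were below the other 9. The difference with 11C7 was -1.83 ± 0.34 (3.55-fold lower, interval -2.63 to -1.02, unadjusted p = 0.000893, adjusted p = 0.45), against 0.788% of all genes lower in 11C7 without overlap. It was -1.91 without 11C7 1 (adjusted p = 0.701). With 7B12 Fap stood 0.30 ± 0.34 from the controls, and 7B12 less 11C7 was 2.13 ± 0.40 (4.38-fold, adjusted p = 0.538). The adjusted p with 11C7 ranged from 0.45 to 0.954 over the 8 alternatives of fit and scaling and the reported fit.

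Serpinf1 encodes pigment epithelium-derived factor, a secreted serpin that binds collagen and limits vessel growth. It was 0.31, -0.51 and 0.21 in NT, 0.067, 0.053 and 0.31 in IgG, -0.44, 0.24 and 0.63 in 11C7 and -0.80, -1.75 and -0.82 in 7B12. All 3 arrays of 7B12 were below the other 9. The difference was -1.2 ± 0.26 (2.3-fold lower, interval -1.81 to -0.58, adjusted p = 0.218), against 1.08% of all genes lower in 7B12 without overlap. The 11C7 arrays enter this test only through the common variance. Without 11C7 1 the difference was the same with adjusted p = 0.0361, and 133 of all genes passed with 7B12 in that fit. This was the only setting in which a matrix gene passed in a comparison of groups. With 11C7 it stood 0.069 ± 0.26 (0.454 without 11C7 1), and 7B12 less 11C7 was -1.27 ± 0.30 (adjusted p = 0.596), or -1.65 without 11C7 1 (adjusted p = 0.054). Pcolce, encoding an enhancer of procollagen C-proteinase, stood 0.87 ± 0.63 with 7B12, and 0.39 without NT 3, where it was -2.83, or 0.56 without 7B12 2.

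**Figure D3:**
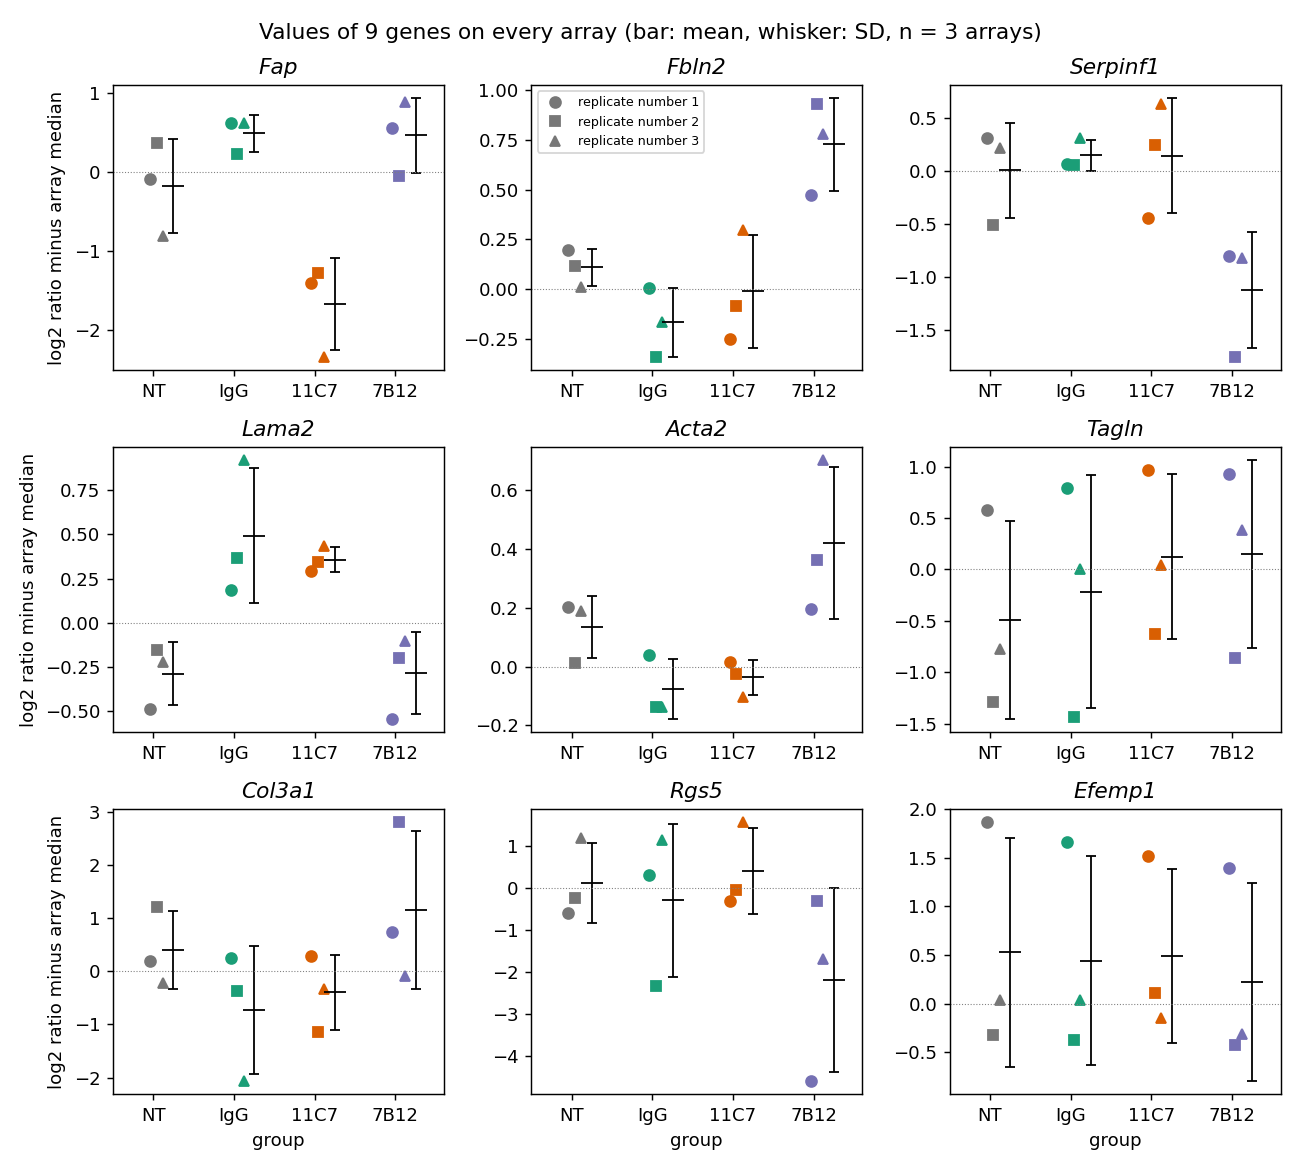
Each panel shows 1 gene as log2 ratio minus the array median on every array by group, with the marker shape giving the replicate number, a bar the group mean and a whisker the SD (n = 3 arrays). Fap is low in the 3 arrays of 11C7, Serpinf1 low and Fbln2 high in those of 7B12, and Lama2 above 0 in IgG and 11C7. For Tagln and Efemp1 the circles of number 1 lie above the other arrays of their group.

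Mural genes comprise the contractile proteins of smooth muscle and the pericyte genes Pdgfrb and Rgs5. With 7B12 5 of 6 were above 0 (median 0.33), and with 11C7 3 of 6 (median 0.14). Acta2, encoding smooth muscle α-actin, was 0.20, 0.014 and 0.19 in NT, 0.041, -0.14 and -0.14 in IgG, 0.016, -0.024 and -0.10 in 11C7 and 0.20, 0.36 and 0.70 in 7B12. The 7B12 arrays lay above all 11C7 arrays and overlapped NT. The difference from the controls was 0.39 ± 0.12 with 7B12 (adjusted p = 0.294) and -0.066 ± 0.12 with 11C7, and without 7B12 3 that with 7B12 was 0.239. Tagln, the gene of the actin-binding protein transgelin, was 0.58, -1.29 and -0.77 in NT, 0.79, -1.44 and 0.0029 in IgG, 0.96, -0.63 and 0.045 in 11C7 and 0.93, -0.86 and 0.38 in 7B12. It stood 0.51 ± 0.17 with 7B12 and 0.48 ± 0.17 with 11C7 (adjusted p = 0.322 and 0.78), and 0.49 ± 0.14 with both (adjusted p = 0.368). Each antibody array was above both controls of its number, while the groups as such overlapped.

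Myh11, encoding smooth muscle myosin, stood 0.56 ± 0.32 with 7B12 and 0.35 ± 0.32 with 11C7, and the calponin gene Cnn1 0.12 ± 0.40 and -0.25 ± 0.40. Pdgfrb, encoding the receptor that keeps pericytes on vessels, stood 0.26 ± 0.22 and -0.16 ± 0.22. Rgs5, a regulator of G protein signalling in pericytes, was -0.61, -0.26 and 1.19 in NT, 0.30, -2.34 and 1.14 in IgG, -0.33, -0.056 and 1.56 in 11C7 and -4.61, -0.32 and -1.69 in 7B12. It stood -2.11 ± 0.93 from the controls with 7B12 (adjusted p = 0.432), -1.04 without 7B12 1 and -3.53 without 7B12 2. Its single probe set had a 12-array median under 1, and NT 1, IgG 2 and 11C7 1 lay within the range of the 7B12 arrays.

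Of the meningeal and retinoid genes, Aldh1a2 makes retinoic acid in meningeal fibroblasts, Crabp2 binds it and Foxc1 is a transcription factor needed for meningeal development. Aldh1a2 stood 0.26 ± 0.14 with 11C7 (adjusted p = 0.78) and 0.18 ± 0.14 with 7B12. Crabp2 stood 1.23 ± 0.71 with 7B12 and -1.83 ± 0.82 in IgG against NT. Its value in IgG 3 was -3.83, and without that array these differences were 0.75 and -0.867. Foxc1 stood -0.44 ± 0.43 with 7B12 and 0.052 ± 0.43 with 11C7. All 3 genes overlapped between groups in every comparison.

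IgG against NT asks what adding an antibody does apart from Nogo-A. Of the 53 genes 14 were above 0 (26.4%, against 49% of all genes), with a median of -0.21, and none passed (limma). The median was -0.31 without IgG 1, -0.0802 without IgG 2 and -0.087 without NT 1. At an unadjusted p under 0.05 stood Lama2 and Fbln1 (3.77%, against 3.42% of all genes), and 1 gene without the block. These were Lama2, higher, and Fbln1, lower (1.89% each way, against 1.71% each way of all genes). Fbln2 lay lower in IgG than in NT without overlap (1.89%, against 1.94%). The sign was the same in all 3 numbers for 18 genes (34%, against 25.2%). Fbln1, encoding fibulin 1, stood -0.80 ± 0.31 (-0.411 without IgG 2). Its 2 probe sets stood at -0.051 and -1.54, so the size of this difference rests on 1 of them. For 7B12 against 11C7 the median was 0.18, with 36 above 0 (67.9%, against 48.8%), and it was -0.0599 without 7B12 2 and 0.0679 without 11C7 1. Higher in 7B12 without overlap were Fbln2, Fap and Acta2 (5.66%, against 3.72% of all genes), and lower were Lama2 and Serpinf1 (3.77%, against 3.43%). None of these passed, and 7 genes had an unadjusted p under 0.05 (13.2%, against 8.23%), 5 without the block. Of the 7, Lum, Fbln2, Fap and Acta2 were higher in 7B12 (7.55%, against 4.24%) and Lama2, Serpinf1 and Rgs5 lower (5.66%, against 3.99%). The sign was the same in all 3 numbers for 18 genes (34%, against 27.5%). Probe sets of one gene did not always stand on the same side of 0: of 23 genes with several, 14 disagreed with 11C7 and 10 with 7B12.

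More matrix genes passed the test among the replicate numbers than in any comparison of treatments, where none did. By an F test over the 3 numbers in the same fit, 18 of the 53 genes passed (34%, against 23.6% of all genes), and 15 of these were highest in number 1 (28.3%, against 9.85%). All 4 arrays of number 1 were above the other 8 in 16 genes (30.2%, against 8.27% of all genes), and those of number 2 or of number 3 in none (3.81% and 2.97% of all genes). At an unadjusted p under 0.05 stood 27 genes (50.9%, against 39.2%). The mean was highest in number 1 for 33 genes (62.3%, against 37.9%), in number 2 for 9 (17%, against 29.6%) and in number 3 for 11 (20.8%, against 32.4%). The median of number 1 less the mean of numbers 2 and 3 was 0.55, with 40 of 53 above 0. Without NT 1 the count of passing genes was 10 and without IgG 1 it was 11, and over all 12 arrays left out in turn it was 10 to 19. All genes passing then numbered 1352 to 3485.

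Efemp1 had the lowest p of these. Its means in numbers 1, 2 and 3 were 1.61 ± 0.20, -0.25 ± 0.25 and -0.098 ± 0.17 (SD, n = 4 arrays), with an adjusted p of 0.00158 and number 1 above the rest by 1.79. Its lowest array of number 1 was 1.39 and the highest of the others 0.11. Fn1 had means of 0.98 ± 0.016, 0.041 ± 0.36 and -0.73 ± 0.29 (adjusted p = 0.00217). Bgn had means of 1.41 ± 0.27, -0.12 ± 0.38 and -0.044 ± 0.11 (adjusted p = 0.00527). Col5a2 had 1.26 ± 0.18, -0.20 ± 0.36 and -0.042 ± 0.14 (adjusted p = 0.00338).

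Mural genes passed as well. Tagln had means of 0.81 ± 0.18, -1.05 ± 0.37 and -0.086 ± 0.49 in numbers 1, 2 and 3 (adjusted p = 0.00251), Myh11 0.83 ± 0.28, -0.80 ± 0.67 and -0.70 ± 0.42 (adjusted p = 0.0171) and Pdgfrb 0.49 ± 0.36, -0.94 ± 0.31 and -0.97 ± 0.29 (adjusted p = 0.00685). Of the 3 Pdgfrb probe sets, 2 had a 12-array median under 1. The other one ran from 0.071 to 0.40 in number 1, -0.68 to -0.13 in number 2 and -0.074 to 0.22 in number 3. Basement membrane genes in this set were Nid2, Lamb2 and Col18a1, with number 1 above the others by 0.88, 0.99 and 1.11. From elastic fibres came also Loxl1, Fbln5 and Fbn1, by 0.78, 1.23 and 0.77, and from the other groups Col6a3 and Fmod, by 1.17 and 0.82. The remaining 3 passing genes had other orders. Lum was highest in number 2 (1.89%, against 7.79% of all genes passing in that way) with means of 0.092 ± 0.27, 0.85 ± 0.88 and -0.50 ± 0.53 (adjusted p = 0.0487). Col4a1 and Postn were highest in number 3 (3.77%, against 5.99%). Postn had means of 0.33 ± 0.36, -1.04 ± 0.79 and 0.73 ± 0.60 (adjusted p = 0.0425). No gene of the processing and meningeal groups passed.

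A pair of arrays held most of the highest values. NT 1 was the highest of the 12 arrays for 20 genes (37.7%, against 11.2% of all genes), among them Bgn, Efemp1, Mgp and Col6a3. 7B12 2 was the highest for 13 genes (24.5%, against 8.38%). These were Col1a1, Col1a2, Col3a1, Col6a2, Col8a1, Lamb1, Dcn, Lum, Ogn, Fbln2, Lox, Pcolce and Crabp2. The fibrillar collagen mean was 1.19 in 7B12 2, 0.63 in NT 1 and -0.36 in NT 3.

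Markers of some other cell types differed among the numbers beside the matrix genes. The 53 matrix genes had means of 0.30 ± 0.17, -0.12 ± 0.40 and -0.27 ± 0.14 (SD, n = 4 arrays) in numbers 1, 2 and 3. For 14 neuron markers the means were -1.39 ± 0.36, 0.97 ± 0.46 and 0.012 ± 0.16, and 12 of the 14 passed, all lower in number 1 than in the others. Neuron means in number 1 ran from -1.92 to -1.21, and NT 1, with the highest matrix mean, had the lowest neuron mean. The array with the next highest matrix mean, 7B12 2 (0.43), went the other way, with a neuron mean of 1.13. Slc17a7, the vesicular glutamate transporter gene of excitatory neurons, was -2.35 ± 0.51, 0.99 ± 0.98 and 0.12 ± 0.13 (adjusted p = 0.00638). Of 10 oligodendrocyte markers 8 passed, all lower in number 1, with list means of -0.82 ± 0.15, -0.079 ± 0.21 and 0.33 ± 0.17. Of 15 microglial and macrophage markers 10 passed, with list means of -0.0017 ± 0.27, -0.22 ± 0.36 and 0.61 ± 0.21, highest in number 3. Of 13 endothelial markers 5 passed, with means of 0.12 ± 0.26, -0.82 ± 0.18 and -0.19 ± 0.30. Of 10 astrocyte markers 2 passed, 1 higher and 1 lower in number 1. Of 10 choroid plexus and ependymal markers 1 passed, higher in number 1. The share of all genes passing was 23.6%. The part of these cell types in the matrix differences was not tested.

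**Figure D4:**
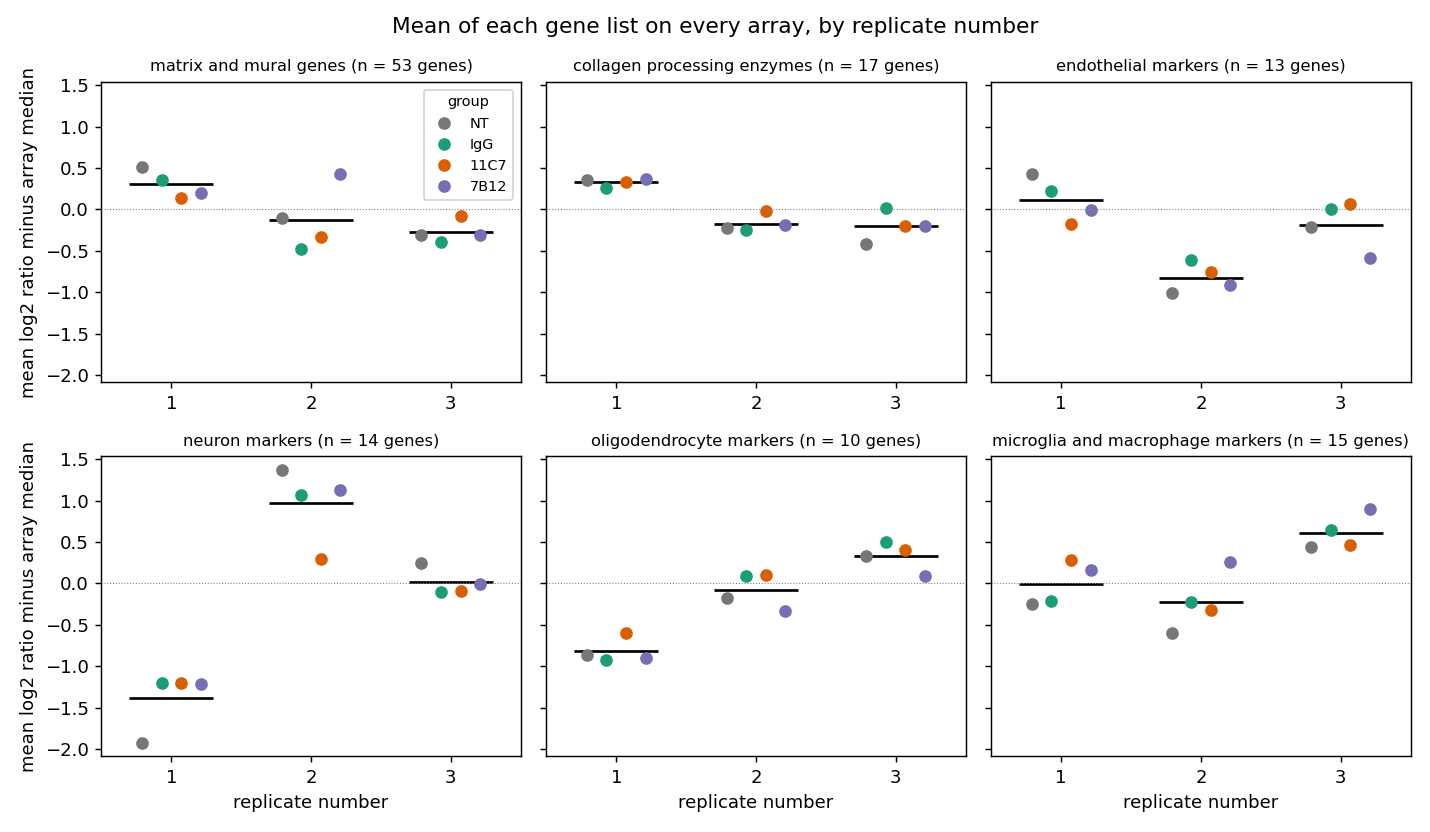
Each panel gives the mean log2 ratio minus the array median of 1 gene list on every array, by replicate number, with colour giving the group and a bar the mean of the 4 arrays. The matrix and mural genes average 0.30 in number 1 against -0.12 and -0.27 in numbers 2 and 3, while neuron markers average -1.39 in number 1 and 0.97 in number 2.

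Enzymes that hydroxylate, fold, cleave and cross-link collagen were counted beside the matrix genes. Of 17 measured, 8 passed among the numbers, 7 of them higher in number 1 than in the mean of the others, with list means of 0.33 ± 0.050, -0.17 ± 0.10 and -0.20 ± 0.18. Plod1 and Plod2, the lysyl hydroxylase genes, were higher by 0.68 and 1.19 (adjusted p = 0.00403 and 0.00649), the collagen chaperone gene Fkbp10 by 0.78 (0.0049) and Bmp1, the procollagen C-proteinase gene, by 0.58 (0.0128). None of the 17 passed with an antibody (limma, 1 at an unadjusted p under 0.05 with 11C7 and 3 with 7B12, against 5.99% and 11.8% of all genes). Plod3 stood 0.38 ± 0.13 with 11C7 (adjusted p = 0.78), P4ha2 -0.42 ± 0.25, and with 7B12 Loxl3 -0.45 ± 0.15 and P4hb 0.24 ± 0.089 (adjusted p = 0.302 and 0.354).

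TGF-β, stored in the matrix by latent binding proteins, drives matrix synthesis in fibroblasts. Of 21 genes of this pathway 9 passed among the numbers (23.6% of all genes did), 6 higher and 3 lower in number 1. The binding protein genes Ltbp3, Ltbp4 and Ltbp1 were higher by 1.55, 1.24 and 1.13. None passed with an antibody (5 at an unadjusted p under 0.05 with 7B12 and 1 with 11C7, against 11.8% and 5.99% of all genes). Ccn2, the connective tissue growth factor gene and a classic target, stood 1.32 ± 0.32 above the controls with 7B12 (adjusted p = 0.219) and 1.37 ± 0.37 above 11C7 (adjusted p = 0.596). Its values were -0.074, 1.61 and -0.27 in NT, -0.51, 0.49 and -0.89 in IgG, -0.033, 0.54 and -0.48 in 11C7 and 0.14, 2.64 and 1.37 in 7B12, and the groups overlapped. The receptor gene Tgfbr1 stood -0.36 ± 0.12 with 7B12, and Tgfbr3 -0.66 ± 0.26 with 11C7.

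Of 19 receptor genes for matrix (integrins, syndecans, discoidin receptors and Cd44), none passed with an antibody, and 7 had an unadjusted p under 0.05 with 7B12 and 1 with 11C7, where the shares of all genes were 11.8% and 5.99%. With 7B12, 8 of the 19 were above 0 and 11 below (median -0.28). Of the 7 genes, 4 were higher and 3 lower, where the shares of all genes were 6.84% and 4.99%. Among the higher, Sdc1, the syndecan 1 gene, stood 2.33 ± 0.64 and Cd44, the hyaluronan receptor gene, 0.61 ± 0.18 with 7B12 (adjusted p = 0.25 and 0.263). The laminin-binding integrin gene Itga6 stood -0.33 ± 0.11 with 11C7 (adjusted p = 0.78). Among the numbers 6 of the 19 passed, where the share of all genes was 23.6%. Of the 6, 5 were higher in number 1, such as Sdc2 by 0.82 and the collagen receptor genes Itga1 and Ddr1 by 0.84 and 0.53.

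Further markers of fibroblasts, meninges and mural cells that are outside the 53 genes did not share one direction. Of 25, 16 were above 0 with 7B12 (median 0.11) and 11 with 11C7 (median -0.079), and none passed. S100a4 stood 0.31 ± 0.092 and the meningeal transporter gene Slc22a6 -1.26 ± 0.50 with 11C7, and Twist1 and Gjb2 stood -0.59 ± 0.24 and -0.95 ± 0.41 with 7B12. Among the numbers 8 of the 25 passed (23.6% of all genes did), 4 higher and 4 lower in number 1. Myl9, a smooth muscle myosin light chain gene, was higher by 0.94, while Thy1, which neurons also express, was lower (-2.29).

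With 7B12, other cell types gave these values beside the matrix genes. Of 15 microglial and macrophage markers 11 were above 0 (median 0.16), with Lyz2 at 1.4 ± 0.28 and Cd14 at 2.38 ± 0.54 (adjusted p = 0.217 and 0.218). At an unadjusted p under 0.05 (limma) 5 of the 15 were higher and 2 lower, against 6.84% and 4.99% of all genes. The list mean of the 15 markers was 0.17, 0.26 and 0.90 in 7B12 against -0.59 to 0.64 in the controls. Of 13 endothelial markers 9 were below 0 (median -0.34), with Emcn at -1.03 ± 0.24 and Kdr at -1.61 ± 0.56 (adjusted p = 0.218 and 0.329). By the same unadjusted limit 1 of the 13 was higher and 2 lower, against 6.84% and 4.99% of all genes. Of 10 choroid plexus and ependymal markers 6 were above 0, with Otx2 at 1.87 ± 0.61 and Tmem212 at -0.52 ± 0.18. Their list mean was -0.13, 0.30 and -0.62 in 7B12 against -0.81 to -0.077 in the 9 arrays of the other groups, so that of the 7B12 arrays 1 lay above that range and the others within it. Of 10 astrocyte markers 7 were below 0, with Agt at -0.80 ± 0.19 and Gjb6 at -1.18 ± 0.35. Of 10 oligodendrocyte markers 7 were below 0 (median -0.15), with Ermn at -0.56 ± 0.18 and Mobp at -0.42 ± 0.15, and of 14 neuron markers 8 were above 0 (median 0.085). Between the antibodies, 7B12 less 11C7 was above 0 for 0 of 10 oligodendrocyte markers (median -0.31) and 13 of 14 neuron markers (median 0.21). None passed, and the part of any of these cells in the matrix values was not tested.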

How the data were processed

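RNA of 12 samples, each with an RNA integrity above 9 per the labels' protocols, was measured on Affymetrix arrays for rat genes. GCOS 1.4 and MAS5 are named in the submitters' processing notes. The authors deposited 1 linear ratio for each probe set and array. The design text names a normalization per chip and per gene to the control median, but the median over the 12 arrays was 1 (tolerance 0.0015) for 76.4% of probe sets, and that over the 6 controls for 11.2%. A constant divisor leaves log2 differences unchanged. In 23.6% of probe sets the median was under 1.

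Of 31099 probe sets 57 spike-ins were left out. Names came from the platform annotation: 20826 probe sets had 1 symbol, 436 several and 9780 none. Entrez matching of 20758 changed 0. log2 ratios less the array median were averaged per gene. limma 3.58.1 (R 4.3.3) was fitted over 12 arrays with 4 group means and the replicate number as a block, as the rule of the gene set asks for paired numbers, with eBayes without trend, two-sided tests and Benjamini-Hochberg adjustment over 14217 genes. It was tested on simulated data. Alternatives were the scaling, the probe set chosen, the variance model, the control, the block and each array left out.

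Members, role groups and lists were chosen with earlier results of these data known. Named are, per comparison, up to 5 genes a direction with the smallest p and at least 1.2-fold, 2 per role group, and 2 per other list. Further genes given with values were chosen after their values were seen.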

Additional observations from a re-analysis of the deposited data

Results flagged for a closer look

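Among the 53 genes, 3 had every 11C7 array on one side of the mean of NT and IgG of the same number and every 7B12 array on the other. Single control arrays did not all lie between: Lum in 7B12 1 (0.18), for example, was below IgG 1 (0.44). For Lama2 the difference of 7B12 less 11C7 was -0.64 (adjusted p = 0.596, limma), for Lum 1.02 (adjusted p = 0.596) and for Pdgfrb 0.42 (adjusted p = 0.655). The difference between the antibodies was tested in the fit over all genes, and none of the 3 passed. The share of all genes with this pattern was not counted. One sign in all 3 numbers was found for 24.7% of all genes with 11C7 and 35.4% with 7B12. Pdgfrb averages 3 probe sets, of which 2 had a 12-array median under 1. Its probe sets stood at -0.28, 0.17 and -0.36 with 11C7, and at 0.25, 0.037 and 0.97 for 7B12 less 11C7.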

How the results depend on the processing

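No alternative of scaling, probe set, variance model or control moved the count of genes or of matrix genes passing with an antibody from 0, and the counts among the numbers stayed within 1.5 times. The paired design rests on the replicate number alone: same-number arrays correlated at 0.0969 to 0.427 in their deviations from the group means (18 pairs), different-number arrays at -0.321 to 0.0944, and all 12 correlated best with their own number. The lowest same-number value lies just under 0.1 and above every different-number value, a hint from the data that a number marks something shared, which the labels do not name. Without the replicate block 0 genes passed in each comparison, and the smallest adjusted p of a matrix gene was 0.636 with 11C7, 0.401 with 7B12, 0.844 with both, 1 for IgG against NT and 0.966 between the antibodies. The median of IgG against NT was -0.111 with the probe set of the smallest residual SD, where the cause was not tested. With each array left out in turn, 0 to 1 of all genes passed with 11C7, 0 to 133 with 7B12 (0 to 1 matrix genes) and 0 to 49 between the antibodies, the highest counts without 11C7 2, 11C7 1 and 11C7 1. The median of IgG against NT was then -0.31 to -0.0802. Among the numbers 1352 to 3485 of all genes and 10 to 19 matrix genes passed. The medians of the 53 genes ran from -0.0715 to 0.154 with 11C7, from -0.00569 to 0.285 with 7B12, from -0.0074 to 0.142 with both and from -0.0599 to 0.318 between the antibodies. With 3 arrays a group and no level behind a ratio, signal over background could not be judged.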
